A study of Mus musculus with 18 samples.

Results

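The 6 two-colour arrays of thymocytes from older mice fell along a steep gradient of haemoglobin RNA, and the 3 arrays with the most of it are described here against the 3 with the least. The arrays were chosen from the 9 arrays (18 samples, 1 per dye channel) by the signal of the probes that the array design names Hbb-b1, which encode adult beta globin. For each of the 6 arrays labelled 16 or 24 months, the log2 ratio of the scanner's processed signals, Cy3 over Cy5, was averaged over the 4 Hbb-b1 probes. The 3 highest arrays were 16 month replicate 1 at 1.78, 24 month replicate 3 at 1.27 and 16 month replicate 2 at 1.18. The 3 lowest were 24 month replicate 2 at 0.34, 16 month replicate 3 at -0.71 and 24 month replicate 1 at -1.79. The limit between them thus fell between 1.18 and 0.34. The 3 highest were mostly of 16 month mice and the 3 lowest mostly of 24 month mice, so the order cannot be fully told apart from age. These sets are not groups of the study: each set mixes both ages, and it was formed from a measured value after the data had been seen. Every difference between the sets is therefore a description, with no p-value and no test.

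The Cy3 channel of each array held thymocyte RNA of 1 C57BL/6 mouse of 6, 16 or 24 months (3 mice per age), and the Cy5 channel held RNA of 1 month C57BL/6 mice on all 9 arrays. The series describes that reference as a pool, whereas its samples are labelled as single numbered mice. Nothing in the files tells between the descriptions. The labels name no treatment, genotype change or sex for any mouse. Thymi had been broken up, strained and washed to remove fat, red cells had been lysed in an ammonium chloride buffer, and no cell type was sorted. The suspension can therefore hold any cell that passed the strainer, and in such bulk RNA fewer cells of a type cannot be told apart from less RNA per cell.

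Thymocytes rearrange their antigen receptor genes with the recombinase encoded by Rag1 and Rag2, pass through a stage with both CD4 and CD8, and leave as mature T cells. Erythroid cells fill with haemoglobin made of alpha and beta globin chains and of haem, whose synthesis starts in them with the enzyme ALAS2. Reticulocytes, the youngest circulating red cells, still carry globin RNA, so blood held in a tissue can add it to an RNA sample. Cytotoxic T cells and natural killer (NK) cells share a program of killer receptors and granule proteins.

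All values are log2 ratios of the older mouse over the 1 month reference after background correction and loess normalization, unless another scale is named. No array had the dyes exchanged, so a value above or below the reference can also hold a dye bias of its probe. A gene is called all higher when its lowest value on the 3 haemoglobin-high arrays lay above its highest value on the 3 haemoglobin-low arrays, and all lower in the reverse case. The gap is the distance between these nearest arrays, negative where the haemoglobin-high arrays were lower. Each gene is represented by its brightest tested probe. Of the 37448 probes tested, 3560 (9.51%) were all higher and 3538 (9.45%) all lower. Gaps over 1 were found for 2 higher probes (0.00534%) and 4 lower probes (0.0107%). Over the 15270 genes with a symbol, 1585 (10.4%) were all higher and 1104 (7.23%) all lower, and the median difference between the medians of the sets was 0.01. In all 6 arrays between 79.6% and 90.3% of Cy3 features were well above background, with the lowest share on 24 month replicate 2.

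Promoters are shown for the beta and alpha globin genes and for Alas2, because these were the genes with the largest gaps upward. The sequences are the 150 bases before the annotated start, 5′ to 3′ on the gene's strand, from RefSeq on GRCm38.p6, at chr7:103813924-103814073 (minus strand) for Hbb-bt, chr11:32283522-32283671 (plus strand) for Hba-a1 and chrX:150547267-150547416 (plus strand) for Alas2. Capitals mark AGATAA, the form of the motif bound by GATA factors searched here, and CCACCC, a motif bound by KLF factors, or their reverse complements TTATCT and GGGTGG.
Hbb-bt: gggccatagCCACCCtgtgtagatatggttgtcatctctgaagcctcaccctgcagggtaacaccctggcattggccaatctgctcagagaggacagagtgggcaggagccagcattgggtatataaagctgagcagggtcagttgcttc
Hba-a1: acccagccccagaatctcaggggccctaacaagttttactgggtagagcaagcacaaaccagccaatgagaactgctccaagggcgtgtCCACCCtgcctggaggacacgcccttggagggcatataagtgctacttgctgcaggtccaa
Alas2: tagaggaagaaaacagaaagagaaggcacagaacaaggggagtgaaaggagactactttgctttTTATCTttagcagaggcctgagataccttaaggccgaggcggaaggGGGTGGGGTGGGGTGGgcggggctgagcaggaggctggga
CCACCC occurred once in the Hbb-bt and Hba-a1 windows and 3 times in the Alas2 window, where the 3 matches overlap, and on either strand it was present in 19.8% of 32851 mouse promoter windows of the same length. AGATAA occurred once, in Alas2, and in 5.65% of all windows. TGATAA, also searched on both strands, was in none of the 3 windows and in 4.45% of all. These are matches of letters, chosen for display after the values were known.

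Adult globin RNA spanned a wide range among mice of the same age. The alpha globin gene Hba-a1 (M26895) read 2.54, 2.06 and 2.01 on the haemoglobin-high arrays, in the order given above, and 0.83, -0.48 and -1.78 on the haemoglobin-low arrays. The beta globin probe for NM_008220, now assigned to Hbb-bt, read 2.54, 1.64 and 1.63 against 0.65, -0.98 and -2.42. The globin signal was thus above that of the 1 month reference on 4 of the 6 arrays and below it on the others. On the 6 month arrays, which the rule did not order, Hba-a1 read -1.77, -1.94 and -1.21 and Hbb-bt -2.43, -2.61 and -1.59. All 6 month arrays were therefore below 16 month replicate 3 and near 24 month replicate 1, the array lowest in haemoglobin. In the Cy5 channel the same Hbb-bt probe varied by 0.13 over all 9 arrays on the quantile-normalized log2 intensity scale, against 5.05 in Cy3 over the 6 older arrays.

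One probe of the ordering measure did not follow the others. The probe for RIKEN clone 9830142B20, which the array design also names Hbb-b1, read -0.10, 0.09 and -0.12 against -0.22, -0.07 and -0.06. This probe was dim, with a mean log2 intensity of 6.36 against 11.4 to 12.9 for the others of the measure. It was not well above background in Cy3 on every array, so its flat values say little about globin RNA. The other probes now assigned to Hbb-bt separated the sets, with gaps of 0.98 for the second NM_008220 probe, 1.03 for clone 2510018N13 and 0.67 for M10524. The second NM_008220 probe and the 2510018N13 probe belonged to the ordering measure, so their separation is part of the choice of the sets. The 2 beta globin genes of the adult locus, and likewise the 2 alpha globin genes, are near-identical copies, so a probe named for one can also read the other. Ordering the arrays by all 6 adult haemoglobin probes, which include the 4 of the ordering measure, gave the same sets.

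Among 37 tested erythroid genes other than adult haemoglobin, 9 were all higher and 0 all lower (24.3%, against 10.4% of all genes), and the median difference of the list was 0.06. Alas2, the first enzyme of haem synthesis in erythroid cells, read 1.47, 0.96 and 1.07 on the haemoglobin-high arrays. On the haemoglobin-low arrays it read 0.10, -0.19 and -0.42, a gap of 0.86, and on the 6 month arrays -0.46, -0.37 and -0.31. The order of the 6 arrays by Alas2 was close to their order by globin. Its Pearson correlation with the haemoglobin measure over the 6 arrays was 0.95, the highest of any gene with a difference between set medians of at least 1. It was one of the criteria by which genes were named, and so a description.

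Genes of late red cell metabolism also separated the sets, by less. Bpgm, the enzyme that makes 2,3-bisphosphoglycerate and so sets the oxygen affinity of haemoglobin, read 0.64, 0.22 and 0.33 against -0.35, -0.10 and -0.16. Fech, which inserts iron into haem, read 0.70, 0.13 and 0.08 against -0.21, -0.19 and -0.31. In both genes 16 month replicate 1 lay well above the other haemoglobin-high arrays. A second Bpgm probe overlapped between the sets, because 24 month replicate 1 read 0.29 and 16 month replicate 2 read 0.16. The embryonic globin Hbb-y had a gap of 0.23 and is counted among the all-higher erythroid genes. Its sequence resembles adult beta globin, so its probe may also read the RNA that formed the sets. Embryonic Hba-x and Hbb-bh1 overlapped.

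Most genes that define erythroid precursors did not separate. The membrane exchanger Slc4a1, abundant in red cell membranes, stayed between -0.14 and 0.07 on all 6 arrays. The erythroid transcription factors Gata1 (-0.03 to 0.07) and Klf1 (-0.16 to -0.03) overlapped as well, as did the membrane protein genes Epb42, Rhag and Ank1. Slc25a37, Slc25a38, Sptb and Tal1 were also all higher, with gaps of 0.02 each. Under the other settings of signal and normalization between 6 and 8 of the 37 genes were all higher and 1 or 2 all lower.

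**Figure D1:**
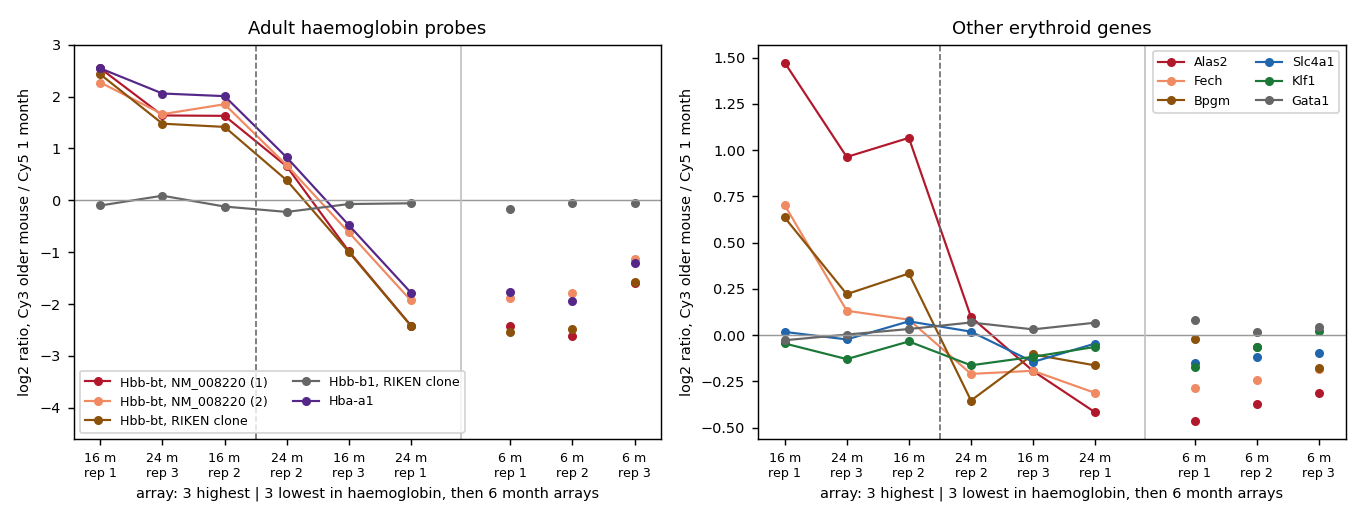
Log2 ratio (Cy3 older mouse over Cy5 1 month reference, vertical axis) on each array (horizontal axis), ordered by haemoglobin with the 6 month arrays at the right, for adult haemoglobin probes (left panel) and other erythroid genes (right panel); each point is 1 array and the dashed line separates the 3 highest from the 3 lowest. Hba-a1 falls from 2.54 to -1.78 and Alas2 from 1.47 to -0.42 across the 6 arrays. Slc4a1, Klf1, Gata1 and the dim probe for RIKEN clone 9830142B20 stay near 0.

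Likeness to haemoglobin was measured only for genes with a difference between set medians of at least 1. Outside the erythroid genes, the gene most like it among these was Slc15a2 (Pearson correlation 0.93 over the 6 arrays), which encodes a proton-coupled peptide transporter. It read 0.76, 0.72 and 0.80 on the haemoglobin-high arrays and 0.25, -2.26 and -2.16 on the haemoglobin-low arrays. The difference lay in 16 month replicate 3 and 24 month replicate 1, which were far below the other arrays, the 6 month ones included (0.52, -0.15 and -0.21). A second Slc15a2 probe, for RIKEN clone 8430408C16, stayed between -0.14 and -0.02. Next among the genes past that limit were Tbc1d19 (correlation 0.67), the fatty acid elongase Elovl6 (0.65) and the chemokine receptor Cxcr6 (0.63). Each of these correlations rests on 6 arrays, all measured against 1 month RNA.

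The 15 genes with the largest gaps upward included Hba-a1, Hbb-bt, Alas2, Slc15a2, Rpl14, Tmed10, Zfp54, Klra10, Elovl6, Bpgm, Wsb1, Psip1, Cdv3 and Morc1. The gaps of the 15 ran from 0.29 to 1.18. Tmed10, a cargo receptor of the early secretory pathway, read 0.63, 0.33 and 0.28 against -0.21, -0.13 and -0.07. Rpl14, a ribosomal protein gene, read 0.73, 0.68 and 0.28 against -0.35, -0.09 and -0.09, and was the only one of 46 ribosomal protein genes that was all higher. For both genes 16 month replicate 1 was the highest array. Of the 8 further probes for 5 of these genes, 3 were all higher and 5 overlapped, and all 3 were beta globin probes.

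Rag1, one of the genes of the recombinase, gave different readings from different probes. The probe for RIKEN clone E430024H16, named Rag1 by the array design, read -1.61, -1.31 and -1.22 on the haemoglobin-high arrays and 0.20, 0.20 and 0.21 on the haemoglobin-low arrays. Its gap of -1.42 was the second largest downward of all tested probes, and its 6 month values of 0.76, 0.64 and 0.31 lay on the side of the haemoglobin-low arrays. In Cy5 it varied by 0.21 over the 9 arrays, against 2.15 in Cy3 over the 6 older arrays. A probe for the RefSeq transcript of Rag1 (NM_009019) instead read 0.81, 0.69 and 0.24 against 0.24, 0.33 and 0.45, so that 16 month replicate 1 and 24 month replicate 3 were its highest arrays and the sets overlapped. The other NM_009019 probe, saturated on at least 1 array, read 0.48, 0.44 and -0.03 against 0.10, 0.18 and 0.25. The NM_009019 probes were the brighter ones. Rag2, which neighbours Rag1, read -0.06, -0.12 and -0.14 against 0.08, -0.02 and -0.07, and overlapped. Low Rag1 values on the haemoglobin-high arrays thus appeared in 1 of 3 probes and in neither transcript probe.

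In all, 4 probes had gaps beyond -1. Besides the Rag1 clone probe these were RIKEN clone 4933425I22 (-1.87, -1.20 and -0.998 against 0.49, 0.49 and 0.50), RIKEN clone E030015N22 (gap -1.03) and Pip4k2a, a phosphatidylinositol phosphate kinase (-1.06, -0.84 and -0.65 against 0.40, 0.38 and 0.41). The clones carry no gene symbol in the tables used here. In each of these probes the 3 haemoglobin-low arrays lay close together, while the haemoglobin-high arrays were more widely spread, with 16 month replicate 1 the lowest. The Pip4k2a probe was not the brightest of its gene, and the brightest one had no gap beyond -1. These probes were named for their gaps after the values were seen.

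The 15 genes with the largest gaps downward included Ramp2, Malat1, Itsn2, Apbb1ip, Laptm5, Ywhaz, Hmg20b, Klf3, Rbm26, Cnot4, Syncrip, Nfatc3, Gtpbp4 and A430033K04Rik, with gap sizes from 0.60 to 0.92 over the 15. Malat1, a long RNA retained in the nucleus, read -0.99, -1.06 and -0.82 against 0.07, 0.50 and 0.37. Itsn2, an endocytic scaffold protein, read -1.23, -0.96 and -0.60 against 0.33, 0.38 and 0.27. Laptm5, a lysosomal protein that lowers T cell receptor levels, read -0.82, -0.83 and -0.63 against 0.20, 0.19 and 0.24. Its RefSeq probe was all lower as well, with a gap of -0.74. Among the others, Syncrip binds RNA and Cnot4 belongs to the CCR4-NOT deadenylation machinery. Apbb1ip, which links Rap1 to integrins, read -1.16, -0.73 and -0.22 against 0.70, 0.78 and 0.61, and Nfatc3, a transcription factor of T cell activation, -0.50, -0.70 and -0.26 against 0.57, 0.53 and 0.37.

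Other probes of the same genes mostly did not show these low values. Of 15 further probes for 9 of the 15 genes, 3 were all lower, 1 was all higher and 11 overlapped. The 3 were the RefSeq probe of Laptm5 and 2 probes of Nfatc3, and the exception was a probe of Itsn2 with a gap of 0.02. For Ramp2, a partner of the calcitonin receptor-like receptor, the probe for clone D930029B10 read -1.29, -0.88 and -1.15 against 0.04, 0.26 and 0.09. Its separation was lost with median centring, and in the Cy3 channel alone the difference was -0.57 in place of -1.24. Its RefSeq probe read 0.09, -0.07 and -0.02 against -0.13, -0.03 and 0.56, and the other RIKEN clone probe overlapped too. Across the array, probes designed on RIKEN clones were all lower in 12.2% of 10253 cases and all higher in 8.64%, while RefSeq mRNA probes were all lower in 6.94% of 11406 and all higher in 10.2%. Of 24 RefSeq probes for 21 genes whose RIKEN probe had a downward gap over 0.3, 7 were all lower, 1 all higher and 16 overlapped. The limit of 0.3 and the division by probe source were chosen after the values were seen, and the part of probe position in these readings was not tested.

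**Figure D2:**
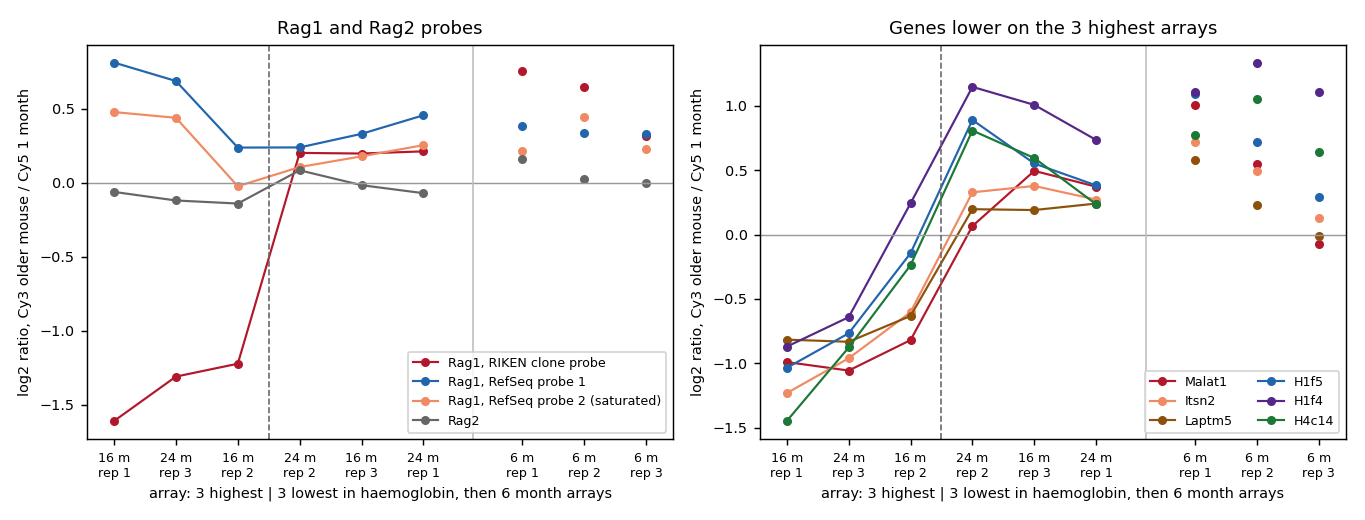
Log2 ratio (Cy3 older mouse over Cy5 1 month reference, vertical axis) on each array (horizontal axis, ordered by haemoglobin with the 6 month arrays at the right) for the Rag1 and Rag2 probes (left panel) and 6 genes that were all lower (right panel); each point is 1 array. The Rag1 RIKEN clone probe steps from -1.22 to 0.20 between the sets while the other 3 probes overlap, and H1f5, H1f4, H4c14, Malat1, Itsn2 and Laptm5 are lower on all 3 haemoglobin-high arrays.

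Histone genes active during DNA replication, whose RNAs mostly end in a stem-loop in place of a poly(A) tail, held the largest share of all-lower genes of any list. Of 13 tested, 6 were all lower and 0 all higher (46.2%, against 7.23% of all genes), with a list median difference of -0.07. The linker histone H1f4 read -0.87, -0.64 and 0.24 against 1.15, 1.01 and 0.74, and H1f5 -1.04, -0.77 and -0.14 against 0.89, 0.55 and 0.38. The core histone H4c14 read -1.45, -0.88 and -0.24 against 0.81, 0.59 and 0.24, and H2ac4 -1.12, -0.76 and -0.17 against 0.62, 0.64 and 0.08. In all 4 genes 16 month replicate 1 was lowest and 16 month replicate 2 was nearest to the haemoglobin-low arrays. The 7 histone genes that overlapped included H1f2, H1f3 and H2ac8, and of the 6 that separated, H2bc14 and H1f0 had gaps of only -0.05 and -0.02. H1f0 is a histone gene expressed outside replication that was also on the list. Between 4 and 6 of the 13 were all lower under the other settings.

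The cell cycle list did not share the low values of the histones. Of its 27 genes, 1 (Cdc45, a replication helicase component) was all higher and 0 were all lower. These were 3.70% and 0%, against 10.4% and 7.23% of all genes, and the median difference was -0.03. After median centring in place of loess, however, 9 of the 27 were all higher and the median was 0.35. The ribosomal protein list turned in the same way. With loess, 13 of its 46 genes were all lower and 1 all higher, with a median of -0.14. These were 28.3% and 2.17%, against 7.23% and 10.4% of all genes. With median centring 0 were all lower and 8 all higher, with a median of 0.36. In the Cy3 channel alone the counts were 4 and 5 and the median 0.04. No direction is therefore given for the ribosomal genes. With loess, oxidative phosphorylation genes were divided evenly, with 4 all higher and 4 all lower of 33. These were 12.1% each way, against 10.4% and 7.23% of all genes. With median centring 6 of them were all higher and 0 all lower, and the median was 0.33. Over all 15270 genes with a symbol, median centring gave 1868 all higher and 916 all lower, with a median of 0.06.

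Of 30 tested genes of cytotoxic and NK cells, 7 were all higher (23.3%, against 10.4% of all genes) and 0 all lower, and the median difference was 0.11. Nkg7, a granule protein of killer lymphocytes, read 1.60, 0.94 and 1.40 against 0.25, 0.78 and 0.86. Il2rb, the shared beta chain of the interleukin 2 and 15 receptors, read 1.17, 0.67 and 1.38 against 0.21, 0.46 and 0.64. The death ligand Fasl read 0.38, 0.38 and 0.44 against 0.11, 0.23 and 0.20, and the Ly49 receptor Klra7 0.75, 0.80 and 0.66 against 0.44, 0.58 and 0.43. The sets of these 4 genes met closely, with gaps of 0.03 to 0.16. The other 3 were Klra8, Tbx21 and Klrc1, with gaps of 0.01 to 0.03.

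Unlike Nkg7 and Fasl, several other effector genes of killing did not separate. The granzymes Gzma, Gzmb and Gzmk, perforin (Prf1) and Ifng all overlapped. The chemokine Ccl5 read 1.72, 1.35 and 1.12 against 0.27, 0.49 and 1.48, so that 24 month replicate 1, the array lowest in haemoglobin, was the second highest in Ccl5. Cxcr6, a chemokine receptor of innate-like and effector T cells, had larger values: 2.91, 1.68 and 3.16 against 0.89, 1.55 and 1.35, with 0.81, 0.41 and 0.58 at 6 months. Its gap of 0.13 was narrow, between 24 month replicate 3 and 16 month replicate 3. The largest Cxcr6 values were both of 16 month mice, which made up most of the haemoglobin-high set. By label, 24 relative to 16 months was -1.24 ± 0.38 for Cxcr6 (log2, SE, 3 mice per age, limma adjusted p = 0.908). It was -0.58 for Nkg7, -0.50 for Il2rb, -0.12 for Fasl and -0.11 for Klra7, and none of these passed in limma. Age and haemoglobin cannot be told apart for these genes. Cxcr6 was the only one of 7 innate-like T cell genes that was all higher (14.3%, against 10.4% of all genes). Il7r and Ly6c1 overlapped because of 24 month replicate 1, at 0.71 and 1.35. Between 3 and 6 of the 30 cytotoxic genes were all higher, and up to 1 all lower, under the settings other than scaling of the spread, which kept the count at 7.

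**Figure D3:**
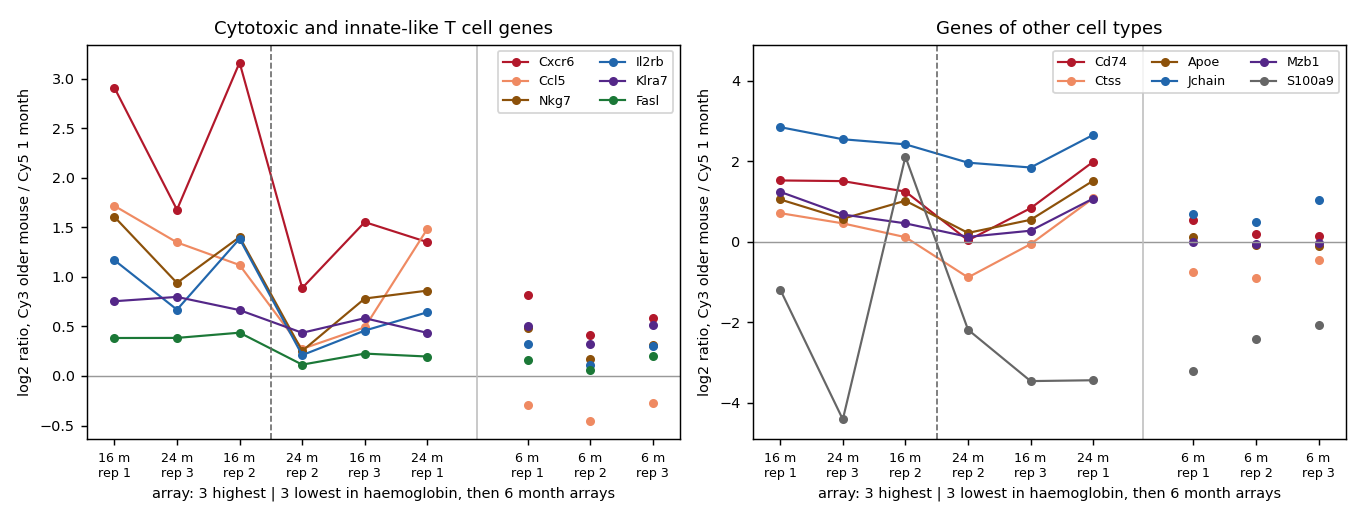
Log2 ratio (Cy3 older mouse over Cy5 1 month reference, vertical axis) on each array (horizontal axis, ordered by haemoglobin with the 6 month arrays at the right) for cytotoxic and innate-like T cell genes (left panel) and for genes of antigen-presenting, plasma and granulocytic cells (right panel); each point is 1 array. Ccl5, Cd74, Ctss and Apoe are high again on 24 month replicate 1, the array lowest in haemoglobin, and S100a9 reaches 2.11 only on 16 month replicate 2.

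Of 10 genes of MHC class II presentation 0 separated the sets, where 10.4% of all genes were all higher and 7.23% all lower. Cd74, the invariant chain, read 1.52, 1.51 and 1.25 against 0.04, 0.83 and 1.99, and 24 month replicate 1 was the highest array also for H2-Aa (1.28), for the protease Ctss (1.08) and for Apoe (1.52). The lowest array for these 4 genes was 24 month replicate 2. In the macrophage and dendritic cell list 0 of 21 separated, in the B cell list 0 of 14 and in the regulatory T cell list 0 of 10. In lists this short those shares amount to few genes. Of 8 plasma cell genes, Tnfrsf17 (gap 0.18) and Xbp1 (gap 0.06) were all higher. The difference for Tnfrsf17 turned with median centring, from 0.23 to -0.11. Jchain overlapped at 2.85, 2.55 and 2.42 against 1.97, 1.85 and 2.66. Among 91 probes whose description names an immunoglobulin, a list made after the values were seen, 11 (12.1%) were all higher and 3 (3.30%) all lower, against 9.51% and 9.45% of all probes.

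Granulocyte genes marked a single array. S100a9, an abundant calcium-binding protein of neutrophils, read -1.19, -4.42 and 2.11 on the haemoglobin-high arrays and -2.18, -3.46 and -3.44 on the haemoglobin-low arrays, and S100a8 read 1.39 on 16 month replicate 2 against -3.29 to -1.48 on the other five. Of the 19 tested granulocyte genes, 16 were above the reference on 16 month replicate 2. On each other older array between 1 and 5 were. Of all 15270 genes with a symbol, 7446 were so on 16 month replicate 2 and 6844 to 7428 on each other older array. Only 12 of the 19 granulocyte genes exceeded background on every one of the 9 arrays. Of 10 platelet genes 1 was all higher (Gp1bb, gap 0.01), and Pf4 and Ppbp overlapped. Of 17 thymic epithelial genes 0 separated, and of 17 stromal and vessel genes 1 was all lower (Acta2, gap -0.37). Of 12 adipocyte genes 1 was all higher and 1 all lower. Over all genes 10.4% were all higher and 7.23% all lower, so counts this small in short lists tell little. The part of these other cells in the haemoglobin difference was not tested.

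The lists of thymocyte genes are read against 10.4% of all genes all higher and 7.23% all lower. Of 19 recombination and early thymocyte genes, 3 were all lower (Runx1, Notch1 and Tcf7) and 1 was all higher (Dtx1), with a median difference of -0.07. With median centring 2 of them were all higher and 1 all lower, and the median was 0.14. The brightest Tcf7 probe had a gap of only -0.05. Another Tcf7 probe was instead all higher, with a gap of 0.22, and remained so with median centring and in the Cy3 channel alone. Notch1, the receptor that commits cells to the T lineage, read -0.40, -0.34 and -0.16 against 0.26, 0.20 and 0.05. Dtx1, a gene induced by Notch signalling, instead read 0.97, 0.46 and 1.18 against 0.32, 0.40 and 0.13. By label, Dtx1 was -0.55 at 24 relative to 16 months (limma adjusted p = 0.908), so age and haemoglobin cannot be told apart for it. The separation of Notch1 was lost with median centring, where the difference between set medians was -0.19 in place of -0.54. Runx1 read -0.23, -0.21 and 0.00 against 0.23, 0.40 and 0.24. Dntt, which adds nucleotides at receptor gene joints, overlapped. Of 20 double-positive thymocyte genes Ly6d and Satb1 were all lower and Cd4 was all higher, at 0.43, 0.29 and 0.37 against 0.20, 0.14 and 0.16. Cd4 no longer separated with median centring or in the Cy3 channel alone, where the difference between set medians was 0.04 in place of 0.21. With median centring 2 of the 20 were all higher and 0 all lower, and the list median was 0.23 in place of -0.03. Of 19 mature T cell genes 1 was all higher and 2 were all lower, and of 17 T cell receptor signalling genes 1 went each way. With median centring the set medians of Tcf7, Ly6d and Satb1 were instead higher on the haemoglobin-high arrays. Of 17 immediate early genes 4 were all lower, all with gaps of at most 0.11 in size. Under the other settings between 1 and 4 of the 17 were all lower. With median centring that list median was 0.08 in place of -0.07. Of 20 interferon response genes 1 was all lower.

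**Figure D4:**
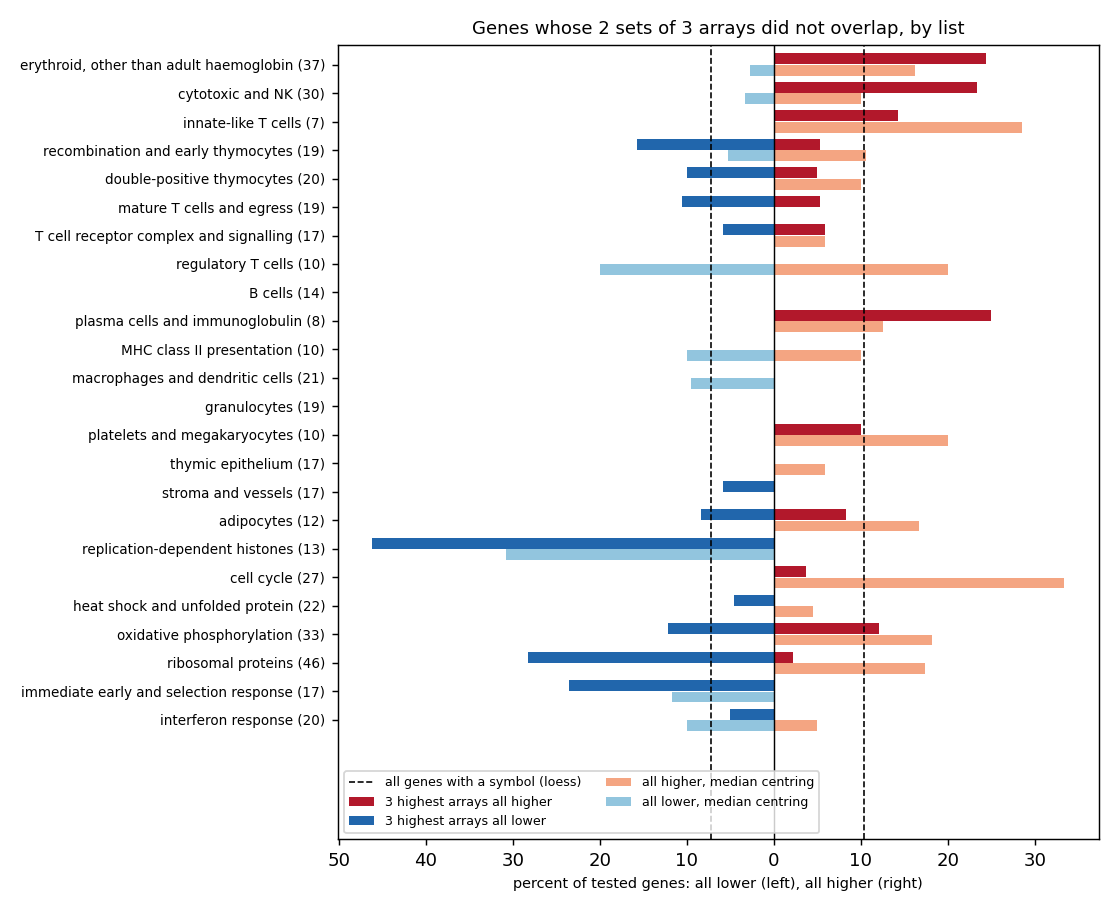
Percent of the tested genes of each list (number in brackets) that were all lower (left of 0) or all higher (right of 0) on the 3 haemoglobin-high arrays, with loess normalization (dark bars) and with median centring (pale bars); dashed lines give the same percentages for all genes with a symbol under loess. The histone list reaches 46.2% all lower and the erythroid list, with the globin Hbb-y counted, 24.3% all higher. The ribosomal list changes side between the normalizations, and the cell cycle list goes from 1 to 9 genes all higher.

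The 6 month arrays, which took no part in the ordering, lay apart from the haemoglobin-high arrays for many of these probes. Of the 3538 probes that were all lower, 2153 (60.9%) had all 6 month values above the 3 haemoglobin-high arrays, against 7.40% of the 30350 overlapping probes. Of the 3560 that were all higher, 1312 (36.9%) had all 6 month values below the haemoglobin-high arrays, against 7.95% of the overlapping probes. Both comparisons use the same haemoglobin-high arrays, so these shares are no independent evidence. Set against the haemoglobin-low arrays, the 6 month values were all above for 20.0% and all below for 1.88% of the all-higher probes, and for 6.78% and 7.72% of the all-lower probes. The same shares of the overlapping probes were 7.44% and 4.40%. For the 15 genes with the largest gaps downward, all 15 had every 6 month value above the haemoglobin-high arrays. For the 15 upward, 13 had every 6 month value below them.

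The 6 arrays also differed along other directions. A principal component analysis of 37009 probes left out those that the array design names or describes as haemoglobin. Globin probes not so marked, among them that of Hba-a1, stayed in. The first component held 43.9% of the variance. Its scores were 0.66, 0.34 and 0.05 on the haemoglobin-high arrays and -0.58, -0.30 and -0.17 on the haemoglobin-low arrays, so the sets did not overlap but 16 month replicate 2 lay close to 24 month replicate 1. The second component (18.5%) placed 16 month replicate 2 (-0.82) opposite 24 month replicate 1 (0.52). Within each age the haemoglobin-high mice were also compared with the haemoglobin-low mice separately. Over all probes the sign of the difference was the same in both ages for 59.2%. Of the 50 probes with a difference over 1 in size in both ages, 48 had the same sign, 12 higher and 36 lower. These counts include haemoglobin probes, whose direction the choice of the sets fixed, so they are a description.

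**Figure D5:**
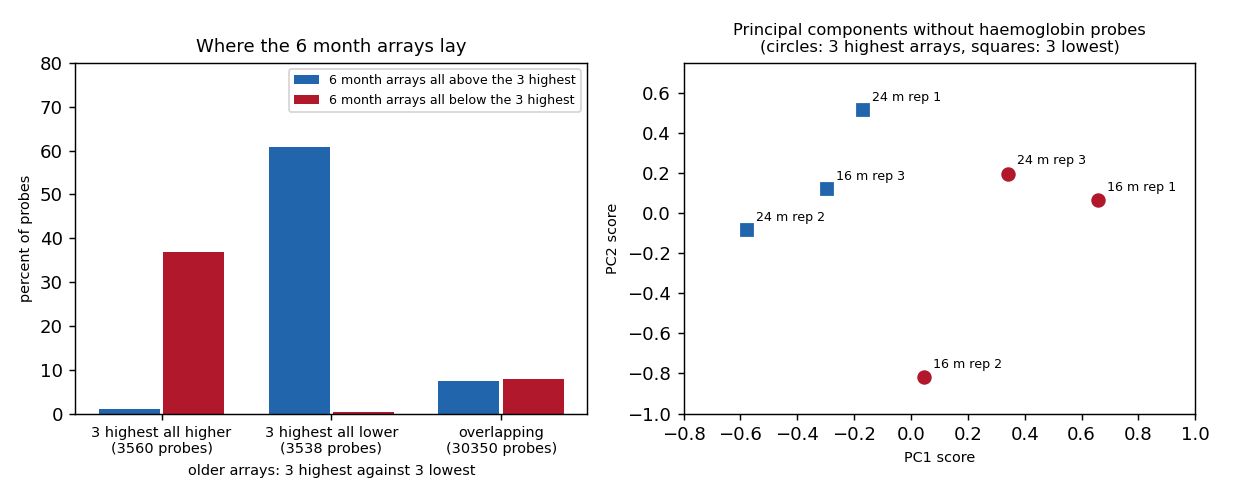
Left, percent of probes (vertical axis) for which all 6 month arrays lay above or below the 3 haemoglobin-high arrays, for probes that were all higher, all lower or overlapping between the sets. Right, scores of the 6 older arrays on the first (horizontal) and second (vertical) principal components. Probes named or described as haemoglobin were left out of the components, while other globin probes, among them that of Hba-a1, stayed in. The all-lower probes reach 60.9% with 6 month arrays above, and the first component runs from 0.66 to -0.58 with the sets on opposite sides.

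Divided by the age on the labels, fewer probes separated the same arrays. The haemoglobin split was formed from measured values and the age split was not, so their shares cannot be ranked against each other. The 24 month arrays were all above the 16 month arrays for 1768 probes (4.72%) and all below for 1976 (5.28%), and 0 probes had a gap over 1 in either direction. In limma with Benjamini-Hochberg adjustment over 37448 probes, 0 probes differed between 24 and 16 months (smallest adjusted p = 0.908), while 1645 had an unadjusted p under 0.05. Between the older ages together and 6 months 0 probes passed as well (smallest adjusted p = 0.168), and 3621 had an unadjusted p under 0.05. None of the 85 named probes passed either comparison. Hba-a1 was 2.50 ± 0.87 on the log2 scale (SE, n = 6 and 3) higher in the older mice than at 6 months (limma adjusted p = 0.460), and Cxcr6 1.32 ± 0.33 (limma adjusted p = 0.417, the smallest among the named genes). The Rag1 clone probe was -1.16 ± 0.44 relative to 6 months (limma adjusted p = 0.480). The labels give 1 mouse per Cy3 sample, and limma weighs each difference against the spread of the ratios between arrays of an age. That spread holds the differences between mice together with those of the Cy5 reference samples, labelling and hybridization. Each array came from a slide of its own, so no slide was shared between arrays.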

How the data were processed

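Cy3 and Cy5 intensity values were taken from the deposited scanner files, whose processed signals the authors' software had background-subtracted and dye-normalized by LOWESS, per the file headers. Agilent Feature Extraction is given there as version 7.5.1, and in the submitters' processing notes as 7.1. Both samples of an array carried identical files on all 9 arrays. The deposited table holds a score per channel made by the authors, and each channel was checked to hold z-scores of its log10 processed signals. Its scale, centring and direction are thereby known.

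Arrays were ordered by the processed signals. All other values come from raw signals, background-corrected with normexp (offset 50) and normalized by loess within arrays in limma 3.58.1 under R 4.3.3. Control spots and outlier spots were left out, and replicate spots were averaged. Tested probes were those that exceeded background clearly (the scanner software's mark) in the Cy3 channel of all 3 arrays of an age or in the Cy5 channel of all 9, which left 37448 of 41174 probes, 133 of them saturated on at least 1 array. Symbols came from RefSeq tables for 20918 probes, 20256 had none, and only the former entered gene lists. Limma fitted a mean per age to all 9 arrays and was tested on simulated data. Alternatives were the processed signals, median centring, the authors' scores, no filter on dim probes, no saturated probes, the Cy3 channel alone, another ordering measure, a replicate block, a haemoglobin covariate, only the older arrays and leaving out each array. Scaling the spread between arrays was added after the data were seen. Tables were made with pandas 2.3.3 and numpy 2.4.6 in Python 3.11.15, and figures with matplotlib 3.10.9.

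The arrays, gene lists, tests and naming rule were chosen with earlier results of these data known. The rule took, with 1 unsaturated probe per gene, the 15 largest gaps in each direction, the 5 genes most correlated with haemoglobin among those with a set-median difference of at least 1, all haemoglobin, Rag1 and Rag2 probes, and up to 4 separated members of each list, or 2 where none separated. Other genes and list members were named after their values were seen. Some results that the rule selects are not reported here.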

Additional observations from a re-analysis of the deposited data

Results flagged for a closer look

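In the 1 month reference channel, 6 month replicate 1 had 90.5% of features well above background, while the nearest of the other 8 arrays had 93.5%, so this array stood apart. It took no part in the ordering. Of 10 measures examined in this way over 9 arrays this was the 1 that stood out, and chance marks about 1 in 20.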

How the results depend on the processing

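In the Cy3 channel alone 2596 probes were all higher and 2592 all lower. Of the 3560 all-higher and 3538 all-lower probes, 84.0% and 82.5% separated the same way in the processed signals and 74.7% and 83.5% in the authors' scores. With median centring 51.7% and 43.1% did, and in the Cy3 channel alone 33.7% and 43.8%. Of 75 named probes that separated, 2 lost the separation in the processed signals, 24 in the Cy3 channel alone and 27 with median centring. Leaving out 1 array, which makes separation easier because fewer arrays must agree, gave 4862 to 6684 all-higher and 4582 to 6223 all-lower probes, the fewest on leaving out 16 month replicate 1 and the most on leaving out 16 month replicate 2. Among named probes that separated, the set-median difference changed sign with median centring for Tcf7 (0.30), Ly6d (0.17), Satb1 (0.24), Bcl2 (0.11), Lat (0.23), Tnfrsf17 (-0.11), Hspa1a (0.00099), Cox7b (0.051), Cox4i1 (0.17), Ndufa4 (0.23), Rpl22 (0.073), Rps15 (0.10), Rpl15 (0.23), Dusp1 (0.0066) and Gbp2 (0.047). It did so in the Cy3 channel alone for Foxp1 (0.091), Rps15 (0.19), Egr3 (0.044) and Gbp2 (0.12), and among named probes that overlapped for Capg (-0.030) and Ikzf2 (0.022). Without 24 month replicate 2 it changed sign for Ctss (-0.055) and Apoe (-0.012), which also overlapped. The cause was not tested. Between ages, 0 probes passed in limma under every alternative run except 16 and 24 against 6 months with 1 array left out, where the count ranged from 0 to 3 (2 when 16 month replicate 1 was dropped and 3 when it was 16 month replicate 3). With the replicate block 0 probes passed in both comparisons. Same-numbered arrays did not deviate together in all pairs, so the numbers were not taken to pair mice. The number of arrays and the dim Cy3 signal of 24 month replicate 2 limit the precision.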
